A study of Gallus gallus with 8 samples.

Results

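The nuclear genes of oxidative phosphorylation were followed in the distal mesenchyme of the chick wing bud. The members were chosen by symbol: names starting with NDUFA, NDUFB, NDUFC, NDUFS or NDUFV (complex I), SDHA to SDHD (complex II), UQCR (complex III), COX4 to COX8 (complex IV) and ATP5 (complex V), without the assembly factors named NDUFAF and SDHAF. A chicken gene table held 75 such symbols, and 67 of them matched transcripts in the libraries, out of 14612 matched genes. They were 32 of 36 genes for complex I, 3 of 4 for complex II, 7 of 8 for complex III, 9 of 9 for complex IV and 16 of 18 for complex V. The remaining 8 symbols (NDUFA7, NDUFB7, NDUFB11, NDUFC2, SDHC, UQCRB, ATP5F1AZ and ATP5PB) were not analysed here. All 67 matched members passed the filter on low counts, which kept 9062 genes for testing.

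The groups of libraries were compared by RNA sequencing of total RNA. HH24 (3 libraries) was untreated wild type distal wing bud at Hamburger Hamilton stage 24. HH27 (3 libraries) was untreated wild type tissue at stage 27, which per the study's methods came from the opposite wing of the hosts that carried a graft. HH24g (2 libraries) was CMV-GFP donor mesoderm, taken at stage HH20 without its ectoderm, grafted beneath the apical ectodermal ridge of a wild type HH24 wing and collected 24 h later, so that its age matched HH24 and its surroundings matched HH27. The design separates genes that keep the timing of the donor from genes that take up that of the host. The grafts differ from both controls in the GFP transgene and in the surgery, so that neither can be told apart from the grafting itself. Each library pooled tissue from several embryos, whose sexes are not given.

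Oxidative phosphorylation takes place at the inner mitochondrial membrane. Complexes I and II pass electrons from NADH and succinate to ubiquinone, complex III passes them on to cytochrome c and complex IV to oxygen. Complexes I, III and IV pump protons, and complex V, the ATP synthase, makes ATP as the protons flow back. Every complex except complex II also holds subunits encoded in the mitochondrial genome, which lie outside the genes described here. NDUFA4, kept with complex I by its symbol, is known as a subunit of complex IV. COX7A2L, ATP5S and ATP5SL carry the names of complexes IV and V but are not core subunits of them.

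The libraries held between 1697272 and 5095662 estimated reads. HH24 replicate 2 stood apart: a single unmatched transcript took 74.3% of its reads, 9.24% of its reads matched genes, and its effective size was 128271 reads against 934614 to 3849969 in the other 7. The 67 members drew 643 reads in this library and between 6017 and 26392 in the others. In it 40 members had fewer than 10 reads, and NDUFS3, NDUFS5, ATP5F1AW and ATP5SL had none. The median member lay 0.48 below its mean over the 8 libraries there (-0.48 on the log2 scale), against -0.15 for the median of all genes. The members' medians and counts of non-overlapping groups that involve HH24 are therefore given with and without this library. For single genes and other counts this was done only where stated. The transcript that dominated HH24 replicate 2 was the most abundant in every library. It took 32.9% and 24.2% of reads in HH24 replicates 1 and 3 and 26.1% in HH27 replicate 2, against 8.62% to 15.2% in the rest. Reads matching genes were 45.5%, 53.3% and 51.9% in these 3, against 61.6% to 67.6% in the rest. Leaving out HH24 replicate 2 thus does not remove this difference of HH24 from most other libraries. The mesenchymal markers were present throughout. Their 8 genes summed to 1591, 1598 and 1944 CPM in HH24, 1469, 1273 and 1474 CPM in HH27, and 1766 and 1702 CPM in HH24g. Every HH27 library was thus below the others, but single markers went both ways, LHX9 being lowest and TWIST1 highest in HH27. The 5 myogenic markers summed to between 0 and 3.91 CPM, with MYOG at 0 reads in every library.

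The members were abundantly expressed. On the per-length scale of TPM, the median member had a median level of 93.1 TPM over the 8 libraries, against 10.3 TPM for all genes tested. Their transcripts were short, with a median length of 723 nt against 2966 nt. The highest levels belonged to COX7B (408 TPM), a small subunit of cytochrome c oxidase, and ATP5G3 (381 TPM), which encodes the proton-carrying subunit c of the ATP synthase. COX4I1 followed at 343 TPM and UQCR10, a small subunit of complex III, at 339 TPM. Each of these 4 was among the 5 highest members in 7 libraries, and UQCRHL, named after the hinge protein of complex III, was among them in all 8 with a median level of 299 TPM.

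Levels differed widely inside each complex. Complex I ranged from 22.2 TPM for NDUFS3, a core subunit, to 186 TPM for NDUFB5, an accessory subunit of the membrane arm. Complex III ranged from 93.1 to 339 TPM, and complex II only from 55.8 to 84.5 TPM. Complex IV held both the highest member, COX7B, and one of the lowest, COX8A at 20.8 TPM. In complex V the range ran from 7.05 TPM for ATP5SL to 381 TPM for ATP5G3. Per-length levels depend on the transcript model chosen for short genes, so neighbours in this order are not separated here.

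**Figure D1:**
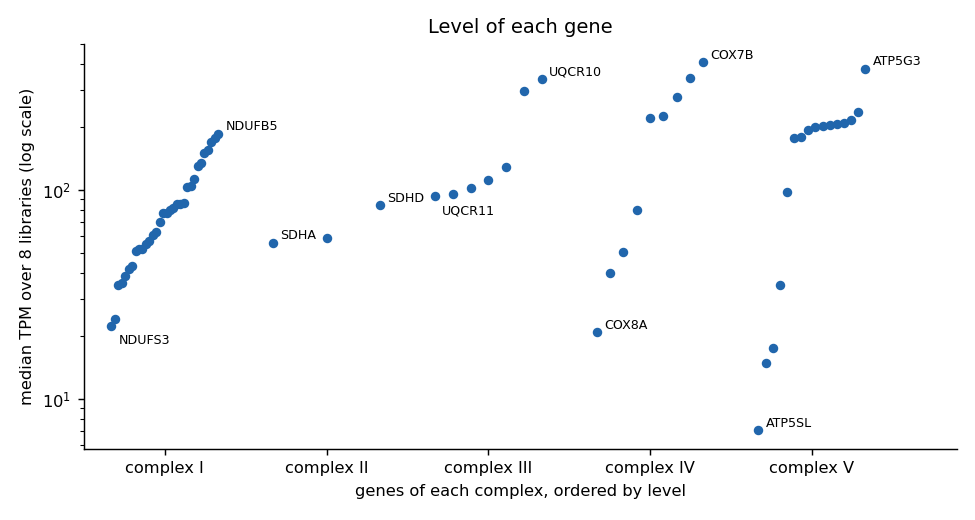
Level of each of the 67 members, as the median TPM over the 8 libraries on a log axis, by complex, with the highest and lowest member of each complex named. COX7B (408 TPM) and ATP5G3 (381 TPM) stand highest, and ATP5SL (7.05 TPM) is the only named member under the median of all genes tested (10.3 TPM).

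Summed over genes, the members had similar levels in the 3 groups. The 67 members together reached 6438, 5013 and 6695 CPM in HH24, 6912, 7305 and 6855 CPM in HH27, and 6784 and 6722 CPM in HH24g. The 3 groups did not overlap and HH24g lay between the stages, but the gap between the highest HH24 and the lowest HH24g library was small. ATP5G3 alone made much of the distance between the grafts and HH27. Without it the other 66 members summed to 6510 and 6470 CPM in HH24g against 6479 to 6846 CPM in HH27, and the groups overlapped. These sums are weighted to the most abundant genes and are descriptions without a test. In bulk tissue, fewer cells of a type and less RNA per cell cannot be told apart.

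By complex, the sums for complex I were 2145, 1848 and 2303 CPM in HH24, 2303, 2422 and 2275 CPM in HH27, and 2368 and 2351 CPM in HH24g. Complex II summed to 280, 226 and 308 CPM in HH24, 346, 370 and 333 CPM in HH27, and 320 and 323 CPM in HH24g. Here every HH27 library was above both grafts, and both grafts were above every HH24 library. Complex III lay between 717 and 1072 CPM and complex IV between 585 and 1006 CPM, with HH24g inside or next to the range of HH27. Complex V summed to 2238, 1637 and 2151 CPM in HH24, 2251, 2481 and 2324 CPM in HH27, and 2104 and 2052 CPM in HH24g. Both grafts were thus below every HH27 library in complex V. Without ATP5G3 the grafts (1830 and 1799 CPM) remained below HH27 (1859, 2023 and 1948 CPM), by a narrower margin. These sums still hold ATP5B and ATP5F1AW, in which both grafts were also below every HH27 library. Sums without them were not formed, so the complex is not separated here from these single genes.

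**Figure D2:**
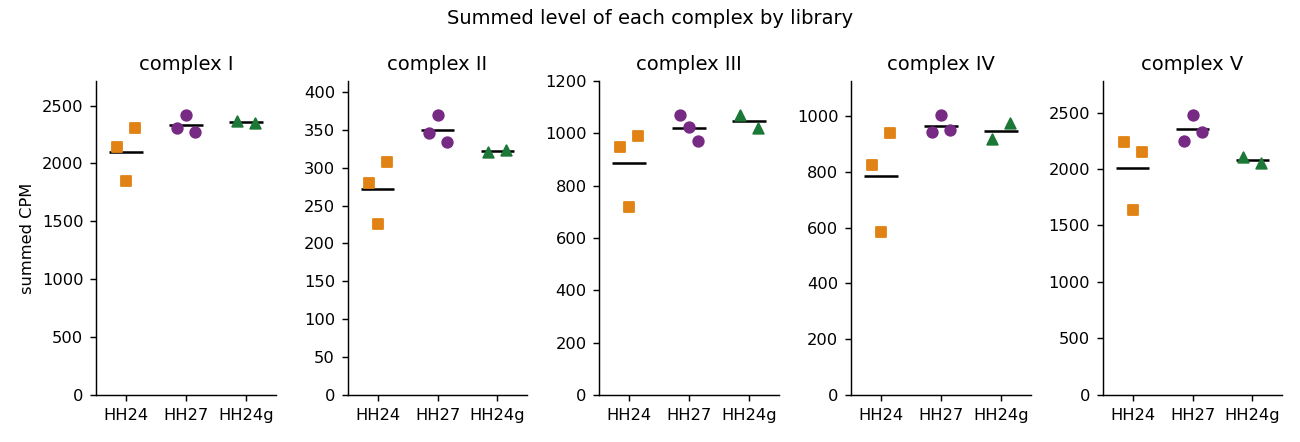
Summed CPM of the members of each complex in each library (points) for HH24, HH27 and HH24g, with horizontal lines at the group means and every axis starting at 0. HH24 replicate 2 is the lowest point in every complex, and in complex V both HH24g libraries (2104 and 2052 CPM) sit under the 3 HH27 libraries (2251 to 2481 CPM).

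The comparison of the grafts with HH27, the stage that the host wings had reached, gave 1 change among the 67 members. ATP5G3 was lower in HH24g. Of all genes tested, 3.18% passed an adjusted p under 0.05 in this comparison (limma voom, Benjamini-Hochberg over 9062 genes). No member also differed by more than 2-fold, against 1.71% of all genes. At an unadjusted p under 0.05 there were 8 members (11.9%), against 17.2% of all genes. The members' median log2 fold change was 0.00, with 34 above and 33 below 0, beside a median of -0.01 for all genes. By complex the medians were -0.00 for complex I, -0.20 for complex II, 0.06 for complex III, 0.05 for complex IV and -0.06 for complex V.

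The members moved in both directions inside the complexes. In 10 members (14.9%) both HH24g libraries were above every HH27 library, against 16.3% of all genes. In 17 members (25.4%) both were below, against 16.4% of all genes, and 7 of these 17 belong to complex V (ATP5B, ATP5E, ATP5F1AW, ATP5G3, ATP5H, ATP5J and ATP5O). Most of these margins were narrow, and ATP5O, a stalk subunit, was at 194.2 and 190.6 CPM in HH24g and between 196.1 and 206.2 CPM in HH27. The intervals were tight for such genes. For 64 of the 67 members the 95% interval of the change lay within 2-fold in either direction, against 74.2% of all genes, and the exceptions were NDUFS4, COX8A and ATP5F1AW.

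**Figure D3:**
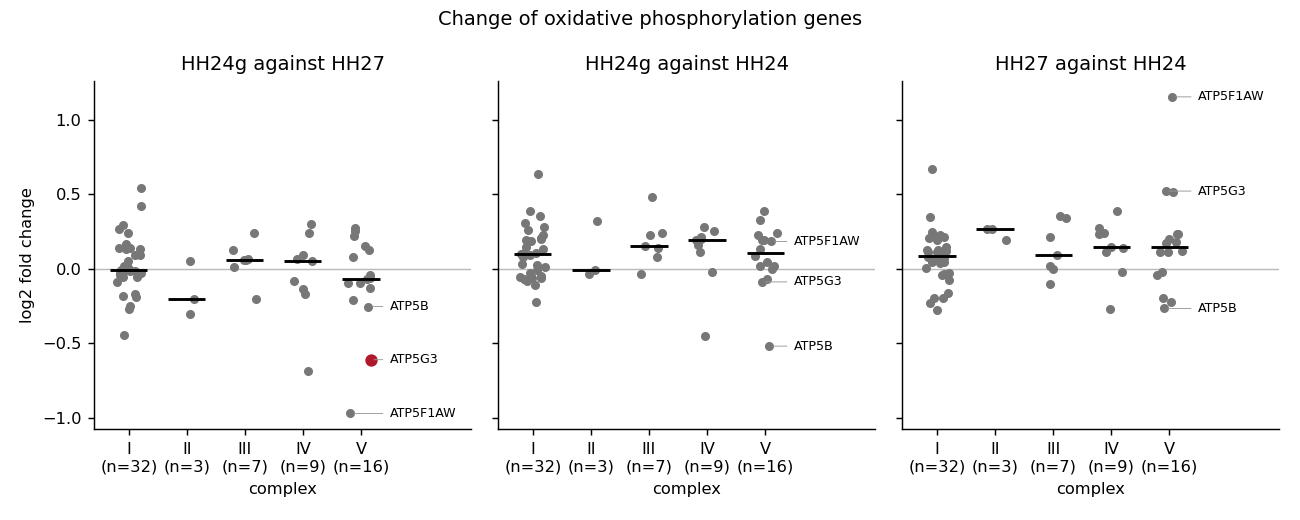
Log2 fold change of each member (points) in the 3 comparisons, by complex, with lines at the complex medians. The red point is the only member past an adjusted p of 0.05 in the limma voom fit, ATP5G3 in HH24g against HH27 (-0.61), and most other members lie close to 0.

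ATP5G3 is 1 of 3 genes that encode subunit c, the protein that forms the rotating ring of the ATP synthase. Its level was 302.8, 218.3 and 267.0 CPM in HH24, 391.3, 458.4 and 375.8 CPM in HH27, and 273.5 and 252.3 CPM in HH24g. The grafts lay inside the range of HH24 and below every HH27 library. The log2 difference between HH24g and HH27 was -0.61 ± 0.10 (SE, 2 and 3 libraries, 0.656-fold, limma voom adjusted p = 0.0157), with a 95% interval of -0.84 to -0.37. Against HH24 the grafts differed by -0.09 ± 0.13 (limma voom adjusted p = 0.840), with an interval of -0.38 to 0.21. HH27 exceeded HH24 by 0.52 ± 0.12, which missed the threshold (limma voom adjusted p = 0.0693) although the groups did not overlap. Without HH24 replicate 2 this difference was 0.48 (limma voom adjusted p = 0.132).

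The call rests on both grafts and on the test. Without HH24g replicate 1 the difference from HH27 was -0.66 (adjusted p = 0.0581) and without HH24g replicate 2 it was -0.54 (adjusted p = 0.151), both with limma voom. It was -0.63 with edgeR's quasi-likelihood test (adjusted p = 0.0736) and -0.63 with DESeq2 (adjusted p = 0.000102).

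The other subunit c genes encode the same mature protein in mammals. They were outside the naming rule, which listed them by newer symbols, and were added after their values were seen. ATP5G1 was at 116.6, 85.8 and 114.4 CPM in HH24, 123.8, 150.5 and 134.8 CPM in HH27, and 129.8 and 130.8 CPM in HH24g. ATP5G2 was at 51.4, 46.8 and 54.8 CPM in HH24, 70.5, 78.7 and 80.0 CPM in HH27, and 78.9 and 63.5 CPM in HH24g. In both genes the grafts were above every HH24 library and overlapped with HH27. The log2 difference of HH24g from HH27 was -0.04 ± 0.10 for ATP5G1 and -0.13 ± 0.12 for ATP5G2 (limma voom adjusted p = 0.888 and 0.658). ATP5G3 supplied 56.7% and 56.5% of the subunit c CPM in HH24g, 66.8%, 66.7% and 63.6% in HH27, and 64.3%, 62.2% and 61.2% in HH24. That share was lower in both grafts than in the other 6 libraries, a description chosen after the values were seen and not tested.

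ATP5B encodes the catalytic beta subunit of the ATP synthase and was the most abundant member on the CPM scale. It was at 620.6, 506.7 and 585.9 CPM in HH24, 478.2, 464.2 and 515.8 CPM in HH27, and 432.7 and 395.6 CPM in HH24g. The grafts were below all 6 other libraries, while HH24 and HH27 overlapped only through HH24 replicate 2. The log2 difference between HH24g and HH24 was -0.52 ± 0.09 (0.698-fold, 95% interval -0.73 to -0.31), which missed the threshold in the limma voom fit (adjusted p = 0.0963). It passed with DESeq2 (-0.52, adjusted p = 0.000105) and in limma voom once genes under 10 counts in any library were left out (-0.49, adjusted p = 0.0401). It did not pass with edgeR's quasi-likelihood test (-0.49, adjusted p = 0.181). In limma voom it was -0.55 without HH24 replicate 2 (adjusted p = 0.135). Without HH24 replicate 1 or 3 it was -0.46 and -0.53 (limma voom adjusted p = 0.357 and 0.278). Without HH24g replicate 1 or 2 it was -0.57 and -0.44. Against HH27 the difference was -0.25 ± 0.08 (limma voom adjusted p = 0.153).

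ATP5B and ATP5G3 were ordered differently across the groups. The ratio of ATP5G3 to ATP5B counts was 0.488, 0.431 and 0.456 in HH24, 0.818, 0.987 and 0.729 in HH27, and 0.632 and 0.638 in HH24g. The groups did not overlap in this ratio, which was formed after the values were seen and has no test. ATP5J2, the f subunit of the membrane part, was at 73.8, 31.2 and 85.1 CPM in HH24, 84.3, 85.5 and 88.3 CPM in HH27, and 96.3 and 95.9 CPM in HH24g. Its grafts were the highest libraries, but the difference from HH27 was 0.15 ± 0.12 (limma voom adjusted p = 0.556).

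**Figure D4:**
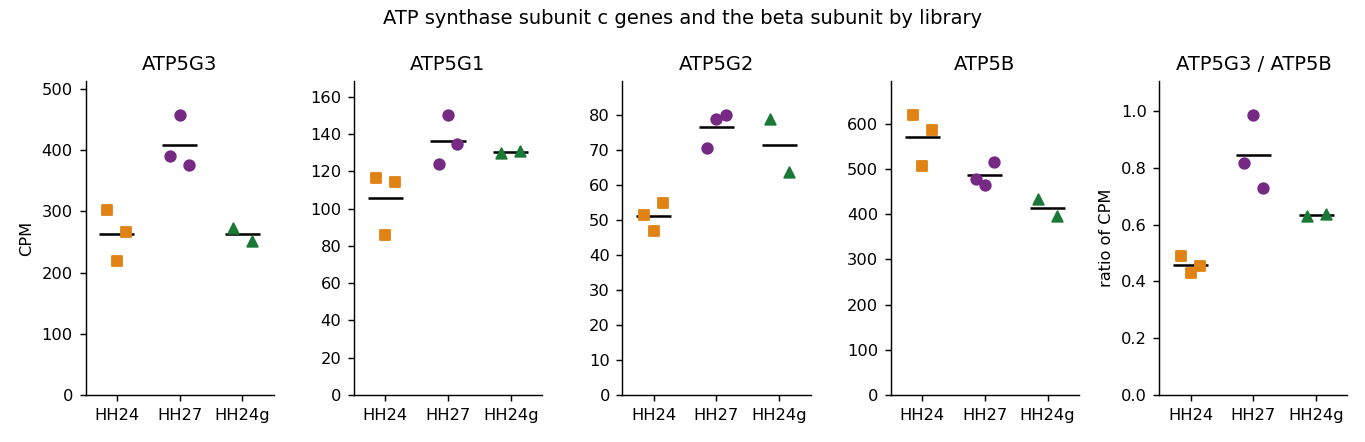
CPM in each library (points) with group means (horizontal lines) for the subunit c genes and ATP5B in HH24, HH27 and HH24g, and the ratio of ATP5G3 to ATP5B, each axis starting at 0. ATP5G3 in the grafts (273.5 and 252.3 CPM) falls within HH24 and below HH27, and ATP5B in the grafts (432.7 and 395.6 CPM) is below every other library.

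Among the other complexes, no member passed an adjusted p of 0.05 between HH24g and HH27. COX8A, a small subunit of cytochrome c oxidase, was at 26.7, 15.6 and 17.6 CPM in HH24, 27.6, 29.1 and 23.4 CPM in HH27, and 16.5 and 15.6 CPM in HH24g. The grafts were below every HH27 library, with a log2 difference of -0.68 ± 0.19 (limma voom adjusted p = 0.102). NDUFB1, an accessory subunit of complex I, was at 61.0, 15.6 and 63.6 CPM in HH24, 83.5, 102.0 and 102.3 CPM in HH27, and 69.9 and 70.0 CPM in HH24g. Its groups were ordered HH24, HH24g and HH27 with no overlap, and HH24g differed from HH27 by -0.44 ± 0.14 (limma voom adjusted p = 0.155). The value of 15.6 CPM in HH24 replicate 2 stands for 2 reads in both genes.

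The highest differences in favour of the grafts were in NDUFS4, NDUFS3 and COX7C. NDUFS3 was at 18.2, 0 and 29.3 CPM in HH24, 23.0, 22.3 and 29.6 CPM in HH27, and 30.4 and 38.2 CPM in HH24g. Its log2 difference from HH27 was 0.42 ± 0.20 (limma voom adjusted p = 0.331). Both grafts were above every HH27 library, the lower one by a small margin. NDUFB4, an accessory subunit of the membrane arm, was at 98.4, 132.5 and 91.9 CPM in HH24, 96.6, 71.9 and 100.8 CPM in HH27, and 115.3 and 108.8 CPM in HH24g, and its difference from HH27 was 0.27 ± 0.13 (limma voom adjusted p = 0.365).

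The most abundant members of complexes I, III and IV on the per-length scale were not called. COX7B was at 120.9, 85.8 and 158.4 CPM in HH24, 159.8, 156.3 and 160.3 CPM in HH27, and 142.8 and 157.0 CPM in HH24g, a difference from HH27 of -0.08 ± 0.11. COX4I1, the largest nuclear subunit of complex IV in mammals, was at 214.0, 70.2 and 248.4 CPM in HH24, 261.7, 280.6 and 242.1 CPM in HH27, and 222.6 and 234.9 CPM in HH24g, a difference of -0.17 ± 0.17. In COX4I1 both grafts were below every HH27 library, and in COX7B the groups overlapped. UQCR10 was at 95.2, 132.5 and 120.3 CPM in HH24, 153.7, 152.5 and 121.6 CPM in HH27, and 119.8 and 121.0 CPM in HH24g (-0.20 ± 0.13). UQCRHL was at 170.1, 148.1 and 191.7 CPM in HH24, 170.9, 167.0 and 163.6 CPM in HH27, and 182.2 and 168.9 CPM in HH24g (0.07 ± 0.09). The UQCR10 grafts were below every HH27 library, just under the lowest and further below the others. The UQCRHL grafts overlapped with both other groups. NDUFB5 was at 119.8, 85.8 and 125.2 CPM in HH24, 124.5, 139.8 and 120.0 CPM in HH27, and 131.8 and 143.3 CPM in HH24g (0.14 ± 0.10).

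COX6A1 and COX7A2 belong to subunits of complex IV that have separate heart and muscle forms in mammals. COX6A1 was at 97.4, 85.8 and 104.7 CPM in HH24, 100.02, 122.4 and 114.8 CPM in HH27, and 107.3 and 121.3 CPM in HH24g, a difference from HH27 of 0.05 ± 0.11. COX7A2 was at 61.0, 39.0 and 85.1 CPM in HH24, 88.9, 102.0 and 91.9 CPM in HH27, and 89.8 and 80.7 CPM in HH24g, a difference of -0.13 ± 0.13. The grafts overlapped with HH27 in both. In all, 63 of the 67 members differed by less than 0.5 on the log2 scale between HH24g and HH27, 65 between HH24g and HH24, and 63 between HH27 and HH24.

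Complex II, which is succinate dehydrogenase and also an enzyme of the citric acid cycle, was measured through 3 genes. SDHA, the flavoprotein subunit, was at 126.3, 93.6 and 157.5 CPM in HH24, 169.4, 175.8 and 159.5 CPM in HH27, and 174.2 and 171.4 CPM in HH24g. SDHB, the iron-sulphur subunit, was at 63.1, 70.2 and 65.5 CPM in HH24, 72.4, 72.8 and 76.9 CPM in HH27, and 60.4 and 68.1 CPM in HH24g. SDHD, a membrane anchor, was at 90.9, 62.4 and 85.1 CPM in HH24, 104.6, 121.4 and 96.9 CPM in HH27, and 85.8 and 83.7 CPM in HH24g. All 3 were higher in every HH27 library than in every HH24 library, as were 13.7% of all genes. The log2 differences were 0.27, 0.19 and 0.27, and none passed the test. In HH24 replicate 2 the 3 genes together drew 29 reads. In the grafts SDHA lay in the range of HH27, whereas SDHB and SDHD lay below every HH27 library, as did 16.4% of all genes. Against HH27 the grafts differed by 0.05 ± 0.10 in SDHA, -0.20 ± 0.10 in SDHB and -0.30 ± 0.11 in SDHD (limma voom adjusted p = 0.849, 0.364 and 0.216).

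Between the grafts and HH24, tissue of the same age, no member passed an adjusted p of 0.05 in the limma voom fit. Of all genes, 0.011% passed, a single gene that also differed by more than 2-fold. At an unadjusted p under 0.05 there were 2 members (ATP5B and SDHA, 2.99%), against 11.3% of all genes. DESeq2 called 1 member, ATP5B, and 2.15% of all genes. The quasi-likelihood test of edgeR called 0 members and 15 of 9062 genes. The members' median log2 fold change was 0.11, with 47 above and 20 below 0, beside 0.02 for all genes. The medians of the complexes were 0.10, -0.01, 0.16, 0.19 and 0.11 from complex I to complex V. In 20 members (29.9%) both grafts were above every HH24 library, against 16.2% of all genes, and in 1 member, ATP5B, both were below, against 10.9%.

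HH24 replicate 2 had few reads for these genes, so the same was counted without it. Both grafts were then above the remaining HH24 libraries in 24 members (35.8%), against 22.8% of all genes, and below them in 4 (5.97%), against 20.1%. The median without that library was 0.10, beside 0.02 for all genes, and the complexes had medians of 0.076, 0.0086, 0.17, 0.19 and 0.063. Complex II thus changed sign close to 0, and the median of complex V was lower by over 1.5 times. SDHA differed by 0.32 ± 0.13 between HH24g and HH24 (limma voom adjusted p = 0.412). NDUFS3, with a difference of 0.64 ± 0.39, UQCR11, a small subunit of complex III, with 0.48 ± 0.26, and NDUFV3, an accessory subunit of complex I, with 0.39 ± 0.25, were the 3 highest. They had 0, 1 and 11 reads in HH24 replicate 2. UQCR11 was at 33.2, 7.8 and 36.2 CPM in HH24 against 50.4 and 44.6 CPM in HH24g, and NDUFV3 at 24.6, 85.8 and 41.1 CPM against 40.9 and 47.4 CPM. The mean CPM of NDUFV3 was 50.5 in HH24 and 44.1 in HH24g, opposite to the sign of its fitted difference. After ATP5B the lowest were COX8A (-0.45 ± 0.27) and NDUFA1 (-0.22 ± 0.26), an accessory subunit of complex I with 25, 3 and 34 reads in HH24 and 66 and 72 reads in HH24g. The interval lay within 2-fold for 62 of the 67 members, against 58.9% of all genes.

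Between the stages, HH27 against HH24, no member passed an adjusted p of 0.05 in the limma voom fit, against 1.78% of all genes, and none with a change over 2-fold, against 1.07%. At an unadjusted p under 0.05 there were 4 members (NDUFB1, ATP5B, ATP5G2 and ATP5G3, 5.97%), against 15.3% of all genes. DESeq2 called 1, ATP5G3 (0.55, adjusted p = 0.00149), and 4.31% of all genes. The quasi-likelihood test of edgeR called 0 members and 159 of 9062 genes. The median was 0.11, with 49 above and 18 below 0, beside 0.03 for all genes. By complex the medians were 0.09, 0.27, 0.09, 0.15 and 0.14. All HH27 libraries were above all HH24 libraries in 18 members (26.9%), against 13.7% of all genes, and below in 0, against 9.94%.

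Without HH24 replicate 2 the HH27 libraries were above HH24 in 22 members (32.8%), against 18.8% of all genes, and below in 4 (5.97%), against 17.3%. The median was then 0.10, beside 0.01, and the complexes had medians of 0.039, 0.22, 0.048, 0.14 and 0.10, those of complexes I and III being lower by over 1.5 times. NDUFB1 had a difference of 0.67 ± 0.22 (limma voom adjusted p = 0.193), and of 0.60 without that library, in which it had 2 reads. ATP5G2 differed by 0.51 ± 0.17 (limma voom adjusted p = 0.190). The lowest differences were in NDUFA5, an accessory subunit of complex I (-0.28 ± 0.14), COX7A2L, known from the assembly of respiratory supercomplexes (-0.27 ± 0.16), and ATP5B (-0.27 ± 0.09). NDUFA5 was at 81.3, 54.6 and 80.2 CPM in HH24 and at 64.8, 68.0 and 65.5 CPM in HH27. COX7A2L was at 69.5, 85.8 and 88.0 CPM in HH24 and at 59.4, 68.0 and 70.9 CPM in HH27. HH24 overlapped with HH27 in both genes, but in NDUFA5 only through HH24 replicate 2, where it had 7 reads. The interval lay within 2-fold for 63 of the 67 members, against 59.2% of all genes. Both comparisons with HH24 share the same 3 control libraries, so they are not independent of each other.

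The sum of the erythroid genes moved with the groups as well. The 6 matched erythroid markers summed to 2750, 2885 and 3323 CPM in HH24, 302, 1131 and 1624 CPM in HH27, and 549 and 1022 CPM in HH24g, so every HH24 library was above every other library. Of these markers HBZ, HBA1 and HBAD made most of the sum. The 7 endothelial markers summed to 215 and 227 CPM in HH24g and to between 128 and 203 CPM in the other libraries. The 8 ectodermal and ridge markers summed to between 171 and 219 CPM, with overlap of the groups. The 5 leukocyte markers summed to 53.4 and 51.0 CPM in HH24g and to between 31.1 and 46.8 CPM elsewhere. No single endothelial marker had both grafts above every other library, and among the leukocyte markers only PTPRC did. The part of these cells in the differences of the respiratory genes was not tested.

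The members on the sex chromosomes are described on their own, since pools can differ in sex. ATP5F1AW, a copy of the alpha subunit gene of the ATP synthase on chromosome W, which only female birds carry, had 13, 0 and 62 reads in HH24, 159, 137 and 183 reads in HH27, and 43 and 140 reads in HH24g. That was 13.9, 0 and 60.6 CPM in HH24, 60.9, 133.0 and 47.5 CPM in HH27, and 21.5 and 42.8 CPM in HH24g. Both grafts were below every HH27 library and HH24 overlapped with both groups, and the difference of HH24g from HH27 was -0.97 ± 0.46 (limma voom adjusted p = 0.334). The other 24 genes of chromosome W summed to 169, 405 and 471 CPM in HH24, 614, 974 and 502 CPM in HH27, and 217 and 447 CPM in HH24g. In each group except HH24, where replicate 2 had no reads for ATP5F1AW, the libraries had the same order in this sum as in ATP5F1AW. Reads of the W copy and of its counterpart on chromosome Z, which was not analysed here, may be shared between them, so its level is uncertain.

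The 3 members on chromosome Z, of which male birds carry a pair and females one, were all higher in both grafts than in every HH27 library, as were 16.3% of all genes and 160 of the 449 tested genes of this chromosome. NDUFS4, an accessory subunit of complex I, was at 52.5, 32.05 and 50.1 CPM in HH27 and at 79.4 and 62.0 CPM in HH24g (0.54 ± 0.22, limma voom adjusted p = 0.263). In HH24 it was at 73.8, 70.2 and 41.1 CPM. COX7C, a small subunit of complex IV, was at 99.5, 39.0 and 85.1 CPM in HH24, 85.8, 78.7 and 92.2 CPM in HH27, and 108.3 and 106.6 CPM in HH24g (0.30 ± 0.12 against HH27, limma voom adjusted p = 0.260). HH24 overlapped with HH27 in both genes. ATP5I, the e subunit of the ATP synthase, was at 72.8, 85.8 and 51.8 CPM in HH24, 64.4, 43.7 and 66.0 CPM in HH27, and 81.9 and 67.5 CPM in HH24g, a difference from HH27 of 0.27 ± 0.18. Over all 449 tested genes of chromosome Z the median difference of HH24g from HH27 was 0.19, against -0.02 for 8597 genes on other chromosomes. The part of the sexes of the pooled embryos in these differences was not tested.

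**Figure D5:**
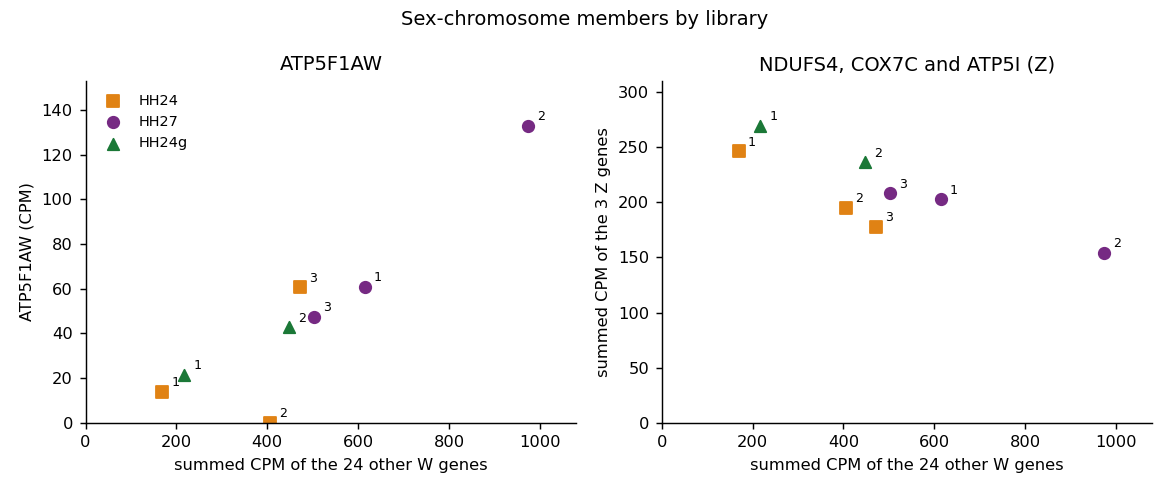
Each point is a library, numbered by replicate, with the summed CPM of the 24 other genes of chromosome W on the horizontal axis and, on the vertical axis, the CPM of ATP5F1AW (left) or the summed CPM of the 3 members on chromosome Z (right). ATP5F1AW ranges from 0 to 133.0 CPM across libraries, and the Z members are at 270 and 236 CPM in HH24g against 154 to 208 CPM in HH27.

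Other genes of mitochondria and of energy metabolism gave no calls. None of 40 assembly factors, 14 genes of the citric acid cycle and pyruvate dehydrogenase, 10 regulators of mitochondrial biogenesis, 3 electron carriers, 63 mitochondrial ribosomal proteins or 11 glycolytic enzymes passed an adjusted p of 0.05 in any of the 3 limma voom comparisons. At an unadjusted p under 0.05, taking the grafts against HH27 first, then the grafts against HH24, then HH27 against HH24, there were 2, 1 and 3 assembly factors, 1, 2 and 1 genes of the citric acid cycle, 1, 1 and 2 regulators, 0, 0 and 0 electron carriers, 5, 4 and 6 mitochondrial ribosomal proteins, and 4, 3 and 5 glycolytic enzymes. Of all genes, 17.2%, 11.3% and 15.3% were under that limit in the same order. The share of the 11 glycolytic enzymes was above this in each comparison, with log2 differences between -1.12 and 1.22. The median differences in this order were 0.04, -0.05 and -0.13 for the assembly factors. For the citric acid cycle they were -0.04, -0.21 and -0.15, with 11 of 14 genes below 0 in both comparisons with HH24, the opposite sign to the members. The regulators had medians of 0.11, -0.07 and -0.15, with 8 and 7 of the 10 below 0 in the comparisons with HH24. GABPA, named after its values were seen, was above HH24 without overlap in both. Its log2 difference was 1.17 ± 0.24 in HH24g and 1.06 ± 0.23 in HH27 (limma voom adjusted p = 0.119 and 0.0658). Medians were 0.07, 0.09 and 0.24 for the electron carriers and 0.05, 0.04 and 0.01 for the mitochondrial ribosomal proteins. For the glycolytic enzymes they were 0.09, -0.05 and -0.17.

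The cytosolic ribosomal proteins, which like the members have short and abundant transcripts, had medians of -0.11, 0.11 and 0.22 over 68 genes. Of them 8, 6 and 34 were at an unadjusted p under 0.05, against 17.2%, 11.3% and 15.3% of all genes. Both grafts were below every HH27 library in 33 of the 68 and above in 2, against 16.4% and 16.3% of all genes. They were above every HH24 library in 25 and below in 2, against 16.2% and 10.9%. All HH27 libraries were above all HH24 libraries in 36 and below in 0, against 13.7% and 9.94%. The non-overlap seen in the members was thus also present in this list. RPS12, of the small ribosomal subunit, was the gene called: it was at 761.8, 678.3 and 715.9 CPM in HH24, 909.0, 956.5 and 909.9 CPM in HH27, and 754.2 and 767.1 CPM in HH24g. It was lower in HH24g than in HH27 (-0.27 ± 0.06, limma voom adjusted p = 0.0377), and HH27 was above HH24 (0.33 ± 0.06, limma voom adjusted p = 0.0388). Transcript length was compared on its own. The 48 members with transcripts under 1000 nt had medians of -0.02, 0.12 and 0.12 and the 19 longer ones 0.06, 0.10 and 0.09, against -0.04, 0.02 and 0.04 for all genes under 1000 nt.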

How the data were processed

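Ribosomal RNA was depleted and stranded total RNA libraries were made. For each of 8 libraries the authors deposited a transcript table of estimated counts, in which reads shared by transcripts are divided among them, and the deposited TPM values were computed by the authors from these reads and the effective transcript lengths. The submitters' processing notes name HISAT2 2.0.2, Salmon, limma and galGal4. The program that wrote the tables is not given in the sources used here. The study describes 3 replicate experiments for each condition and left out 1 HH24 and 1 HH24g library after quality control. The series holds 3 HH24 and 2 HH24g libraries. By these counts a left-out library still among them would be an HH24 one, which the labels do not identify.

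Of 57399 transcripts, 26660 (46.4%) matched a RefSeq gene table (assembly GRCg7b, used for names and chromosomes). Estimated counts were summed per gene and rounded. Unmatched transcripts did not count toward library sizes. Genes were kept by filterByExpr (minimum count 10, minimum total 15), scaled by TMM and fitted with limma voom, all 8 libraries in 1 model, with Benjamini-Hochberg adjustment over all genes. CPM were computed on the TMM-adjusted library size. Errors are standard errors of the fit, with moderated intervals of 95%. TPM was used only for levels between genes. Python 3.11.15 and pandas 2.3.3 were used for the tables, and DESeq2 1.42.0, edgeR 4.0.16 and limma 3.58.1 in R 4.3.3 for the fits. The code of the fits was tested on simulated counts with known changes. Apart from these changes all simulated libraries shared the same mean profile, so the separate profile of HH24 replicate 2 was not simulated.

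Replicates are labelled as such and the methods describe pools of tissue from replicate experiments. Where a group's libraries are not separate embryos, p-values measure only the spread between them. The members and lists were chosen with earlier results of these data known. Values per library are given for members called in any comparison, the 3 highest and 3 lowest log2 fold changes of each comparison with at least 10 CPM in the higher group, the most abundant members of each complex, complex II and members with paralogs. The alternatives were size factors of DESeq2, its own test, the quasi-likelihood test of edgeR, other filters, only the groups compared, sample weights, a replicate block, other features counted and each library left out in turn. The count of non-overlapping groups without HH24 replicate 2 was chosen after seeing the data.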

Additional observations from a re-analysis of the deposited data

How the results depend on the processing

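Only 1 value of a named gene was called in the limma voom fit, that of ATP5G3 between HH24g and HH27. Over 18 alternatives, 1291 of 1308 values of named genes were the same. They kept their direction and their side of the threshold or, where not called, moved by less than their error. Most of them were values not called that stayed so, which says little about the call. All 4 lost calls were that of ATP5G3 between HH24g and HH27. Another 4 values gained a call, 9 moved further, and none that was called changed sign. Of values not called, 38 changed sign. The 1 member called between HH24g and HH27 became 0 with edgeR's quasi-likelihood test (140 of all genes against 288), 0 when unmatched transcripts were added as features, and 0 to 1 when each library was left out in turn. With at least 10 counts in every library, 27 members were tested and their median in that comparison was 0.039. In each of the other 2 comparisons 1 member was called, ATP5B in HH24g against HH24 and ATP5G3 in HH27 against HH24. Of the 2635 genes then tested, 64 and 199 were called in these 2 comparisons. DESeq2 also called 1 in each of these, with 195 and 391 of all genes against 1 and 161 in the limma voom fit, and edgeR called 15 of all genes in HH24g against HH24. The cause was not tested.

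The replicate numbers were not taken as pairs. Deviations from the group means correlated between -0.03 and 0.04 for libraries with the same number. With 2 grafts these deviations mirror each other, so the values cannot show whether HH27 and HH24g libraries shared hosts. With a replicate block the members' medians were -0.01, 0.08 and 0.10 and 1, 0 and 0 members were called, as without it. Of 9062 genes, 244, 3 and 193 were called with the block. Depth limits the low members in HH24 replicate 2, where 40 had fewer than 10 reads, and 2 graft libraries limit every comparison with HH24g.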
